A study of Mus musculus with 2 samples.

Results

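Scavenger receptors are surface proteins with which macrophages bind and take up modified lipoproteins, bacteria, dying cells and haemoglobin complexes. Chromatin accessibility was examined at 8 of their genes, Msr1, Marco, Olr1, Cd36, Scarb1, Cd163, Mrc1 and Stab1, in mouse bone marrow-derived macrophages (BMDMs). A peak was counted for a gene when its summit lay within 100 kb of an end of that gene and no other protein-coding RefSeq gene had a nearer end. By this rule 65 of 114785 peaks belonged to the 8 genes, 41 of the 77060 in untreated cells and 24 of the 37725 in stimulated cells. The peaks were thus chosen by their own called positions, and the genes with earlier counts of these peaks known, so number and strength are given as a description, with no test.

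The assay was ATAC-seq, in which the Tn5 transposase cuts and tags open DNA. Both groups were wild-type BMDMs cultured with M-CSF at 20 ng/ml. One group was untreated. The other was exposed for 2 h to 100 ng/ml of R848 (resiquimod), an agonist of Toll-like receptor 7. Each group was a single library, so no difference between them has a replicate check, and every interval below covers counting error alone.

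The receptors fall into several structural families. Msr1 and Marco encode class A receptors with collagen-like stalks, Cd36 and Scarb1 encode class B receptors that handle fatty acids and high-density lipoprotein, and Olr1 encodes a lectin-like receptor for oxidised low-density lipoprotein. Cd163 takes up haemoglobin-haptoglobin complexes, Mrc1 is the macrophage mannose receptor, and Stab1 (stabilin) is an endocytic receptor that also clears apoptotic cells. In macrophages, Toll-like receptor signals are known to alter the expression of several of them, while Cd163, Mrc1 and Stab1 are used as markers of homeostatic or alternatively activated macrophages.

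Most peaks of both lists were weak. The median untreated peak held 7 tags over a genome-wide background of 0.968, and the median R848 peak 8 tags over 1.36, where tags are the stacked reads at the summit, recovered from the deposited fold and p. On X, where none of the 8 genes lies, were 4556 of the 77060 untreated and 820 of the 37725 R848 peaks. What made these shares unequal was not tested. All 8 macrophage markers examined (Adgre1, Csf1r, Itgam, Spi1, Lyz2, Fcgr1, Mertk, Cd68) had an assigned peak in each list, as did 1 of 4 T cell markers. B cell markers had one at 1 of 4 genes in untreated and 3 of 4 in R848 cells, neutrophil markers at 3 of 5 and fibroblast markers at 3 of 4 in each list. All 4 endothelial markers also had a peak in each list. Of all protein-coding genes, 69.5% had an assigned untreated peak and 63.1% an R848 peak, so an assigned peak alone does not mark a cell type. The part that other cells had in the peaks described below was not tested.

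Across the 8 genes, the lists had 4 sites in common. An untreated peak overlapped 4 of the 24 R848 peaks, or 16.7% (95% Wilson interval 6.68 to 35.9), against 31.0% of the whole R848 list. An R848 peak overlapped 4 of the 41 untreated peaks, or 9.76% (3.86 to 22.5), against 15.3% of the whole untreated list. The other 20 R848 peaks and 37 untreated peaks had no counterpart of at least 1 bp and are called R848-only and untreated-only below. Over the whole lists 69.0% of R848 peaks and 84.7% of untreated peaks were of this kind. The whole-list shares of 31.0% and 15.3% lay within the intervals for the 8 genes. So did the shares among peaks assigned to any gene, 33.1% of R848 and 20.2% of untreated peaks. Among assigned peaks of 6 to 16 tags lying over 1 kb from a gene end, 20.5% of R848 peaks were overlapped. Among such untreated peaks of 5 to 15 tags 10.8% were, and both values were also within the intervals. These sets leave out peaks within 1 kb of a gene end, of which the 24 R848 peaks held 2. Which list had more peaks of its own depended on the threshold. With the untreated list reduced to the length of the R848 list 17 peaks were untreated-only and 21 were R848-only. With a −log10 q of 5 required the numbers were 1 and 4, and with a q of at most 0.05 they were 26 and 8.

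Peaks found in a single list were spread unevenly over the family. All 8 genes had an R848 peak and all but Olr1 an untreated peak, beside 63.1% and 69.5% of all protein-coding genes. A site in both lists was found at 4 genes (Cd36, Stab1, Cd163 and Mrc1), beside 34.4%. Msr1 alone held 10 of the 20 R848-only peaks. R848-only peaks were found at 6 of the 8 genes, beside 47.2% of genes, and untreated-only peaks likewise at 6 of 8, beside 56.9%. At Cd36, Marco, Cd163 and Mrc1 untreated-only peaks outnumbered R848-only ones, as they did at 42.0% of protein-coding genes. Olr1 had more R848-only peaks (20.8% of genes), and Msr1, Scarb1 and Stab1 had equal numbers. With lists of equal length R848-only peaks numbered 10 at Msr1 and 3 at Scarb1, against 5 and 1 untreated-only. The median was 1.5 R848-only and 4.5 untreated-only peaks per receptor gene, against 0 and 1 over all protein-coding genes.

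**Figure D1:**
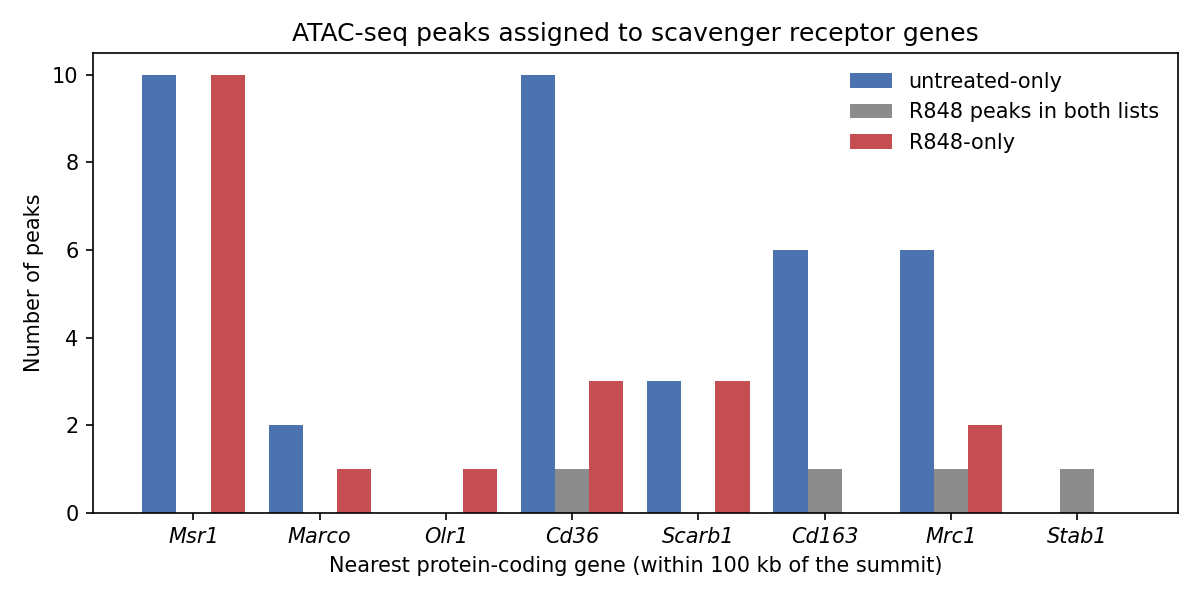
Number of peaks assigned to each gene in 1 untreated and 1 R848 library. Blue bars are untreated-only peaks, grey bars R848 peaks that overlap an untreated peak, and red bars R848-only peaks. Msr1 has 10 of each list-specific kind, Cd36 has 10 untreated-only and 3 R848-only peaks, and the peaks of Stab1 are in both lists.

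The length of DNA from which a gene could draw peaks also differed between the genes. Within the limit of 100 kb, the bases whose nearest gene end was that of Msr1 spanned 299.5 kb, against a median of 46.4 kb per protein-coding gene, while Stab1 had 19.9 kb and Olr1 34.0 kb. Per 100 kb of such DNA, the 8 genes held 1.94 R848-only and 3.58 untreated-only peaks, against 1.14 and 2.25 over all protein-coding genes. Without Msr1 the values were 1.36 and 3.68. Msr1 held 3.34 of each kind per 100 kb, Cd36 1.77 R848-only and 5.89 untreated-only, and Cd163 0 and 6.29. These values rest on few peaks, at most 10 of a kind per gene.

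The start regions of the receptor genes were mostly without a peak. No untreated summit lay within 1 kb of either end of any of the 8 genes, where 30.7% of protein-coding genes had one. An R848 summit lay there at 2 of 8, Olr1 and Scarb1, beside 38.7% of genes. RefSeq promoter windows, from 250 bases before to 50 after a transcription start (mm10, GRCm38.p6), were at hand for 6 of the genes. An untreated peak overlapped 0 of these 6 windows and an R848 peak 1, that of Olr1, against 18.2% and 25.2% of all 32851 windows. All 6 held at most 7 CpG dinucleotides, the median of all windows. Of the 16869 windows with so few CpGs, 2.12% were overlapped in untreated and 3.37% in R848 cells, against 35.2% and 48.2% of those with more.

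Of these windows, 3 are printed, that of Olr1 because it is the one under a peak, and those of Mrc1 and Cd163 as examples of windows without a peak. All windows without a peak held searched motifs, so those of Marco, Cd36 and Stab1, which are not printed, would have served as well. Each is on GRCm38.p6, runs 5′ to 3′ along the strand of its gene, and was taken from RefSeq. Olr1 is on the minus strand at chr6:129507116-129507415, Mrc1 on the plus strand at chr2:14229164-14229463 and Cd163 on the plus strand at chr6:124304401-124304700. Capitals mark matches on either strand to any of the searched motifs, which were AGGAAG (the ETS core read by PU.1), TGANTCA (AP-1), GGG and CC with any 5 bases between them (a loose NF-kB pattern), TTGCNNAA (C/EBP), CACGTG (E-box of MITF and TFE factors) and TGANNNNGC (antioxidant element).
Olr1: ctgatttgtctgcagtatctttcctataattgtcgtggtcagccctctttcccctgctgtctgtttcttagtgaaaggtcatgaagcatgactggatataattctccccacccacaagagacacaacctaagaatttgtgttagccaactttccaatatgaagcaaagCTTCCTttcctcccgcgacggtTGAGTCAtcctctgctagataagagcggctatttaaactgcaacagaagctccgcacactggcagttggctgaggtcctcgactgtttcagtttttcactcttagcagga
Mrc1: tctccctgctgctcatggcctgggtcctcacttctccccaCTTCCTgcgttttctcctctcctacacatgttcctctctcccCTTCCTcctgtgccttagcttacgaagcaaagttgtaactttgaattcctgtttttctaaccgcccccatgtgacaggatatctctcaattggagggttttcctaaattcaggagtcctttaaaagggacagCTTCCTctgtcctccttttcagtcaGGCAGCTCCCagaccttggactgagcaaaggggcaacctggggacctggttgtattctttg
Cd163: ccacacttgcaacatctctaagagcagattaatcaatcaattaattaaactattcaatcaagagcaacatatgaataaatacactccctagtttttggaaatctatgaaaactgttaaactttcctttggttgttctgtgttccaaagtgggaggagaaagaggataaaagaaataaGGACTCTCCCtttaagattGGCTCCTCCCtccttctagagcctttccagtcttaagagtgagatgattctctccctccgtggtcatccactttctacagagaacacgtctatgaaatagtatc

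In the Olr1 window the capitals are CTTCCT, the ETS core on the other strand, at 82 to 77 bases before the start, and TGAGTCA, an AP-1 match, at 60 to 54 bases before it. Olr1 was the only 1 of the 6 receptor windows with TGANTCA, which 7.81% of all windows hold. The ETS core occurred in the windows of Marco, Mrc1, Olr1 and Stab1 and in 35.4% of all windows, with 3 copies in that of Mrc1. The NF-kB pattern occurred in those of Marco, Mrc1, Cd36 and Cd163 and in 50.8% of all windows. It can match both strands at once, as in Marco, where 2 matches overlap. The C/EBP, E-box and antioxidant letters were in none of the 6 windows and in 10.8%, 7.15% and 41.3% of all windows. These matches are letters in a window and not measured binding sites.

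Olr1 had a single peak, and it was in the R848 list. It spanned chr6:129507102-129507469, covered the whole window printed above, and had its summit 118 bases upstream of the RefSeq start, inside the gene as annotated from 129479150 to 129507350. It held 9 tags (95% Poisson interval 4.12 to 17.1) with a fold enrichment over its own library's background of 4.24, at percentile 72.2 of the R848 list. The nearest untreated peak lay 25660 bp away. The Olr1 peak had a −log10 q of 2.63 and so left the list when a −log10 q of 5 was required. When peaks were counted for any gene with an end up to 50 kb away, Olr1 had 6 R848-only peaks and 1 untreated-only peak, since this gene sits among close neighbours.

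At Scarb1, which mediates selective uptake of cholesteryl esters from high-density lipoprotein, there were 3 peaks in each list and none overlapped. The strongest, in R848 cells, had its summit 18 bp from the high-coordinate end of the gene (chr5:125340909-125341142) and held 12 tags (6.20 to 21.0), with a fold of 5.51. Its nearest untreated peak lay 11059 bp away and held 5 tags. The other R848 peaks held 6 and 7 tags, and the 3 untreated peaks 5 to 7. The R848 peak of 7 tags, 17303 bp from the gene, lay 891 bp from the untreated peak of 7 tags.

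Cd36, a fatty acid translocase that also binds oxidised lipoprotein, had 4 R848 peaks, all inside the gene, and 11 untreated peaks, of which 6 were inside it. The gene runs on the minus strand of chromosome 5 from 17781690 to 17888959. One site was in both lists, 8808 bp (R848) and 8924 bp (untreated) from the upstream end of the gene. It held 9 tags in untreated and 16 tags in R848 cells (chr5:17879803-17880349 in the latter) and was the strongest R848 peak of the 8 genes, with a fold of 7.08 at percentile 92.4 of its list. The next strongest at Cd36 was R848-only, at chr5:17839665-17839912, with 14 tags (7.65 to 23.5) and a fold of 6.25. Its summit lay 3905 bp upstream of the RefSeq start at 17835896 and 9750 bp from the nearest untreated peak. Further upstream within the gene, R848-only peaks of 10 and 9 tags lay 21522 and 18784 bp from that start.

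The untreated-only peaks of Cd36 held 5 to 10 tags and lay on either side of the R848-only peaks. Downstream of the RefSeq start 4 of them lay inside the gene, and 5 stood beyond its upstream end, 21404 to 32329 bp from it. The single one between R848-only peaks held 5 tags. The strongest by fold (5.08, 9 tags) was at chr5:17818202-17818422. Those with the most tags, 10 each, were at chr5:17805331-17805867 inside the gene (fold 3.57) and at chr5:17915672-17915871 upstream of it (fold 3.72). All 4 R848 peaks but 6 of the 11 untreated peaks of Cd36 had a q of at most 0.05. With lists of equal length, 3 untreated-only peaks were left at Cd36 beside the 3 R848-only ones.

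Msr1 encodes the class A macrophage scavenger receptor that takes up acetylated and oxidised lipoprotein. It had 10 peaks in each list and no overlapping pair. At least 10 R848-only peaks were found at 0.105% of protein-coding genes and at least 10 of each kind at 0.0274%, which is 6 genes: Msr1, A530032D15Rik, Atp10a, Cntnap5b, Wwox and Zfp600. Of 29 genes with at least 10 peaks in each list, 2 (6.90%) had no peak in common, Msr1 and Cntnap5b. These genes were singled out after their counts were seen.

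The Msr1 peaks of both lists were spread over the gene (chr8:39543232-39642750) and its flanks. Inside it were 5 R848 and 3 untreated peaks. The strongest R848 peak, at chr8:39594786-39595202 within the gene, held 11 tags (5.49 to 19.7) with a fold of 4.92, and the nearest untreated peak, of 6 tags, lay 4522 bp from it. The next, of 10 tags, lay 9203 bp beyond the high-coordinate end, 1511 bp from an untreated peak of 6 tags. The strongest untreated peak, at chr8:39729614-39730028 and 87043 bp from the gene, held 15 tags (8.40 to 24.7) with a fold of 5.76, at percentile 94.6 of its list. It was the farthest from the gene of the Msr1 peaks within the distance limit, and the nearest one past the limit lay 101275 bp away, in the untreated list, with 5 tags. Past the limit 12 untreated and 5 R848 peaks had Msr1 as nearest gene, and none of the other receptor genes had any.

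Several Msr1 peaks of the lists lay close together without touching. An R848 peak of 6 tags (chr8:39724596-39724815), 81940 bp beyond the gene, lay between untreated peaks of 7 and 8 tags, 15 and 67 bp from their edges. Near the low-coordinate end of the gene an R848 peak of 7 tags lay 758 bp from an untreated peak of 9 tags. Over the 8 genes, 1 of 20 R848-only and 2 of 37 untreated-only peaks lay within 500 bp of a peak of the other list, all of them at this one Msr1 site. Over the whole lists 6.90% of R848-only and 3.40% of untreated-only peaks did. The median gap was 6032.5 bp for R848-only and 12540 bp for untreated-only peaks of the receptor genes, and the largest were 54214 and 83251 bp, both at Marco. At a q of at most 0.05 Msr1 had 3 R848-only and 7 untreated-only peaks, with gene ends within 20 kb 5 and 4, and with both lists cut at a −log10 q of 5 it had 0 and 1.

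**Figure D2:**
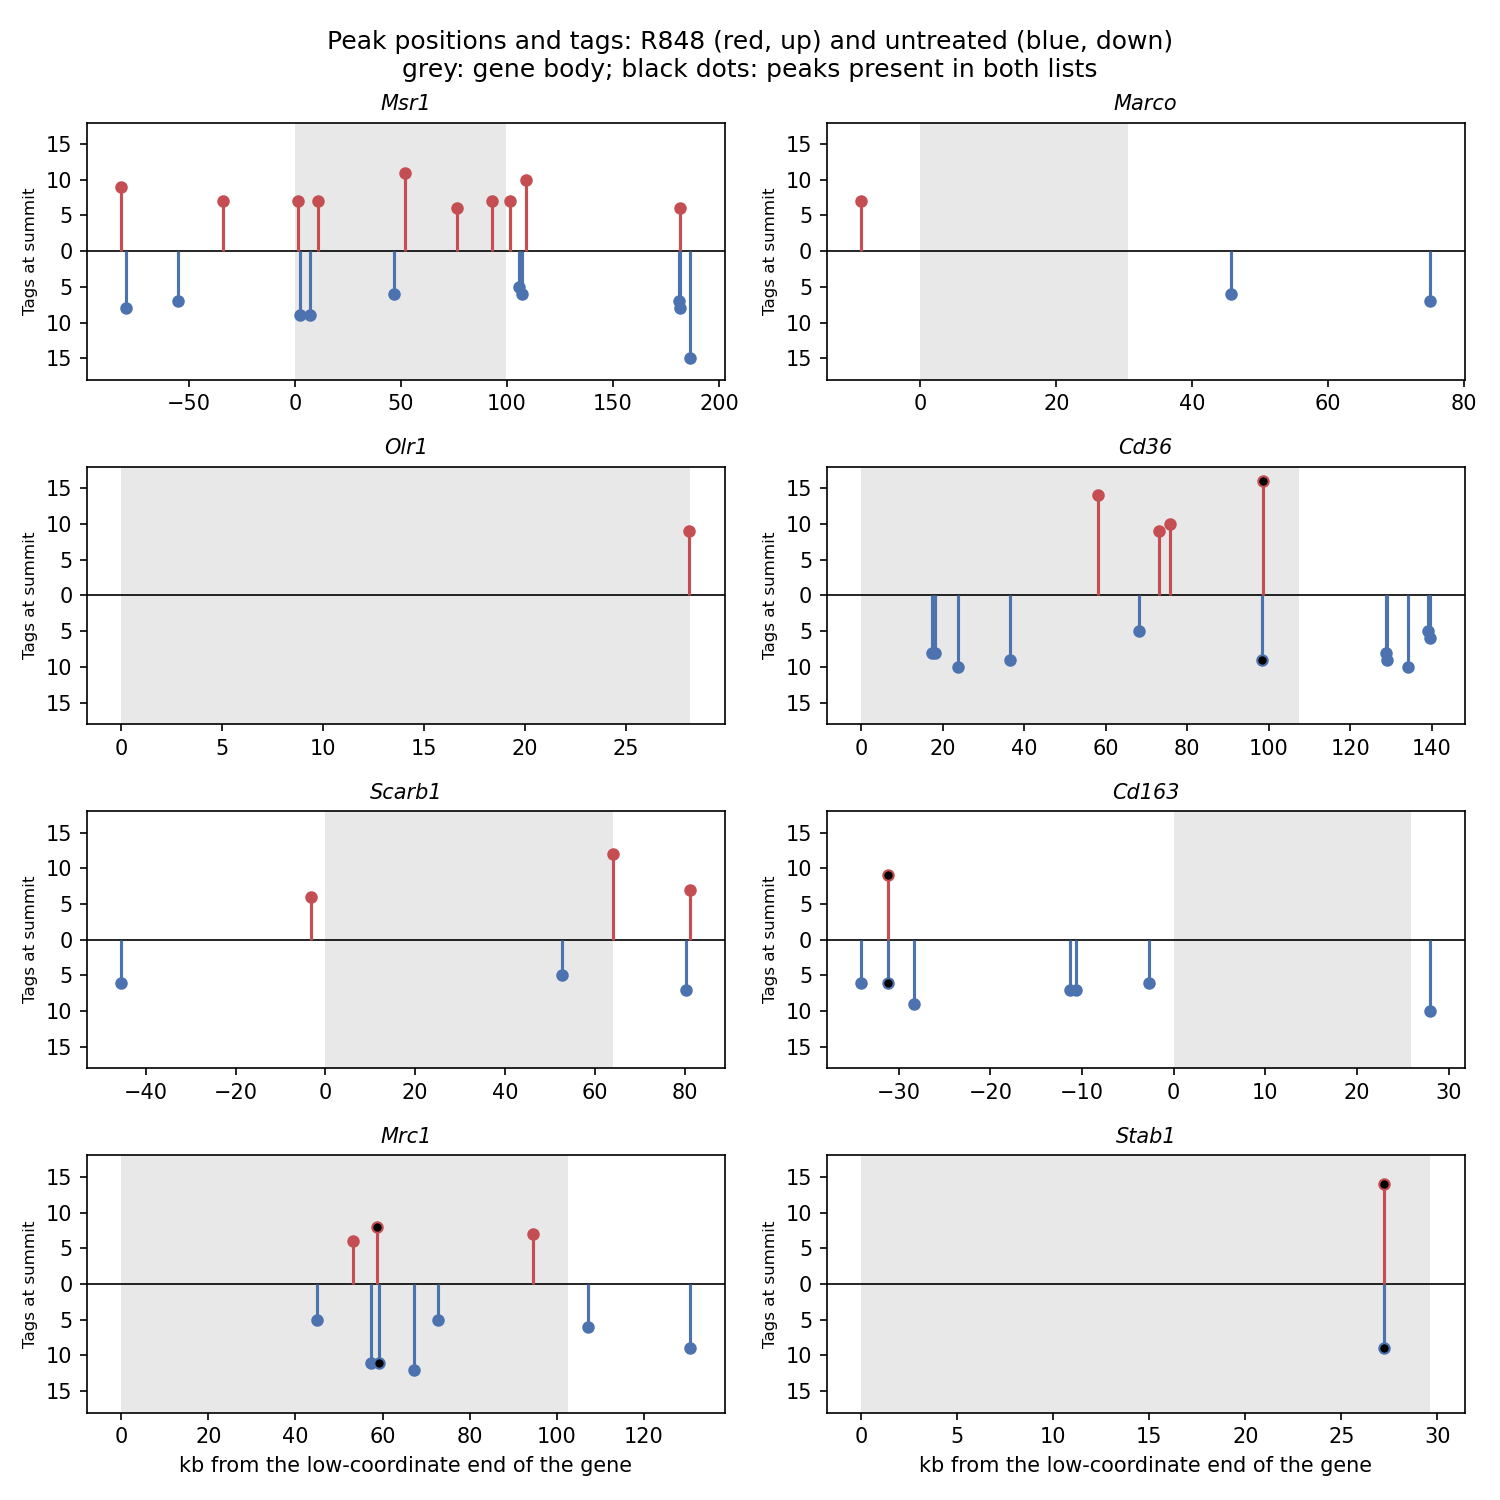
Each stem is a peak summit, placed in kb from the low-coordinate end of its gene, with its height in tags, R848 upward in red and untreated downward in blue. Grey marks the gene body and black dots peaks in both lists. At Cd36 the R848 peaks lie inside the gene with untreated peaks to both sides, at Cd163 all peaks lie outside the gene, and at Msr1 the lists run side by side.

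**Figure D3:**
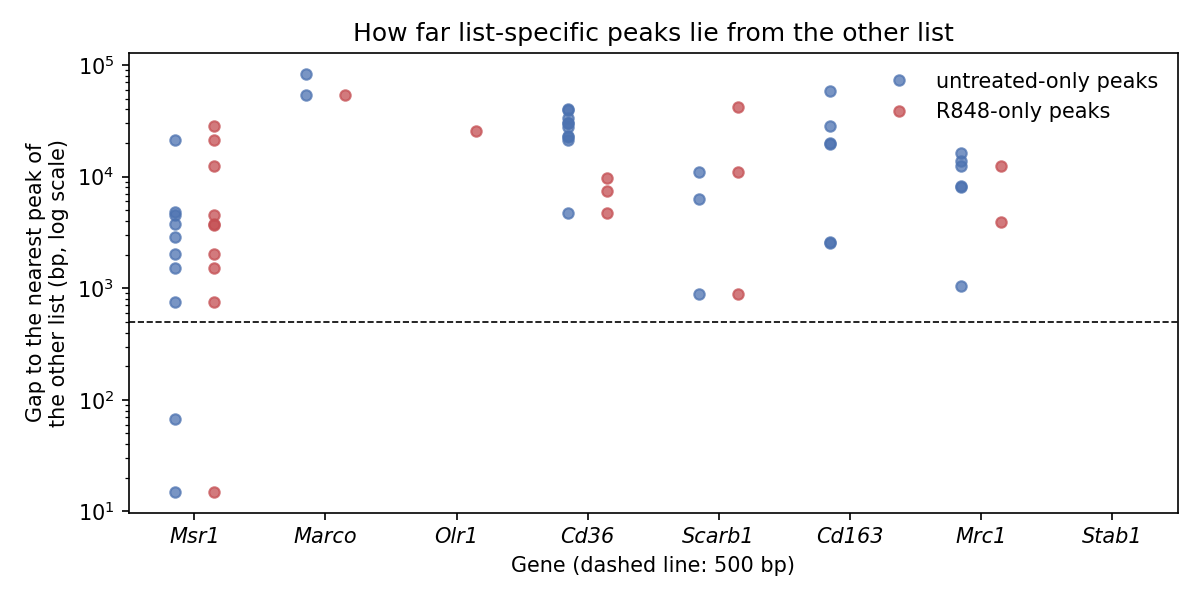
Gap in bp, on a log axis, from each list-specific peak to the nearest peak of the other list, for 37 untreated-only (blue) and 20 R848-only (red) peaks. The 3 points below the dashed line at 500 bp are the Msr1 site with gaps of 15 and 67 bp. Stab1 has no list-specific peak.

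Marco, the class A receptor for unopsonised particles and bacteria, had few and weak peaks. In untreated cells they held 6 and 7 tags, 15209 and 44549 bp upstream of the gene. In R848 cells the single peak held 7 tags, 8717 bp downstream of the gene, with a fold of 3.25 and a q above 0.05. No peak of either list lay inside Marco (chr1:120474538-120505024).

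Cd163, Mrc1 and Stab1, the markers of homeostatic macrophages, had 6, 6 and 0 untreated-only and 0, 2 and 0 R848-only peaks. Over the whole lists, 71.5% of all list-specific peaks were untreated-only. Among peaks assigned to any gene, 38172 were untreated-only and 19371 R848-only. Cd163 had 7 untreated peaks and 1 R848 peak. None of them lay inside the gene (chr6:124304636-124330529), 6 untreated peaks stood 2703 to 34121 bp upstream of it, and the seventh, of 10 tags, 2116 bp downstream. The strongest by fold, at chr6:124276168-124276424, held 9 tags with a fold of 5.08 and was untreated-only. The R848 peak of Cd163 held 9 tags and overlapped an untreated peak of 6 tags, with its summit 31234 bp upstream of the gene. With lists of equal length Cd163 had 3 untreated-only peaks and 1 R848-only peak, the latter being the one whose untreated partner had dropped out.

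Mrc1 had 7 untreated and 3 R848 peaks, with 5 and 3 of them inside the gene (chr2:14229414-14332023). The strongest untreated peak, at chr2:14296432-14296737, held 12 tags (6.20 to 21.0) with a fold of 4.96, and its nearest R848 peak lay 8204 bp away. A further untreated-only peak of 11 tags lay 1042 bp from the R848 peak nearest to it. The R848-only peaks of Mrc1 held 6 and 7 tags, both with a q above 0.05. With gene ends within 20 kb Mrc1 had 1 peak of each list-specific kind, and with lists of equal length it had 3 untreated-only and 2 R848-only peaks. Nearest to an end of Mrc1 were an untreated peak of 6 tags, 4524 bp from it, and an R848 peak of 7 tags, 8171 bp from it. The nearest summit of either list to the RefSeq start of Mrc1, an untreated one, lay 12103 bp upstream of it and belonged to a neighbouring gene by the nearest-end rule. At Stab1 both lists had their single peak at the same place, 2380 bp (untreated) and 2377 bp (R848) downstream of the RefSeq start and inside the gene, with 9 and 14 tags. When peaks were counted for any gene with an end up to 50 kb away, Stab1 had 2 R848-only and 2 untreated-only peaks. By that count 3 of its R848 peaks were in both lists.

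Tags could be set side by side at 4 sites that were in both lists, with a background ratio of 1.4 between the R848 and untreated libraries. The Cd36 site had 9 untreated and 16 R848 tags, a ratio of 1.78 (exact 95% interval 0.740 to 4.56). The Stab1 site had 9 and 14 tags, a ratio of 1.56 (0.627 to 4.07), with summits 3 bp apart. The Cd163 site had 6 and 9 tags, a ratio of 1.5 (0.477 to 5.12). The Mrc1 site had 11 and 8 tags, a ratio of 0.727 (0.254 to 1.99), with summits 322 bp apart in an overlap of 167 bp. Its untreated summit lay outside the R848 peak, so these tags belong to different positions. The local background there was 2.28 tags in untreated and 1.36 in R848 cells, with folds of 3.66 and 3.81. All 4 intervals held 1.4 and also the median of 1.33 over the 11829 overlapping pairs of the whole lists, so no difference in strength was detectable at this depth.

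**Figure D4:**
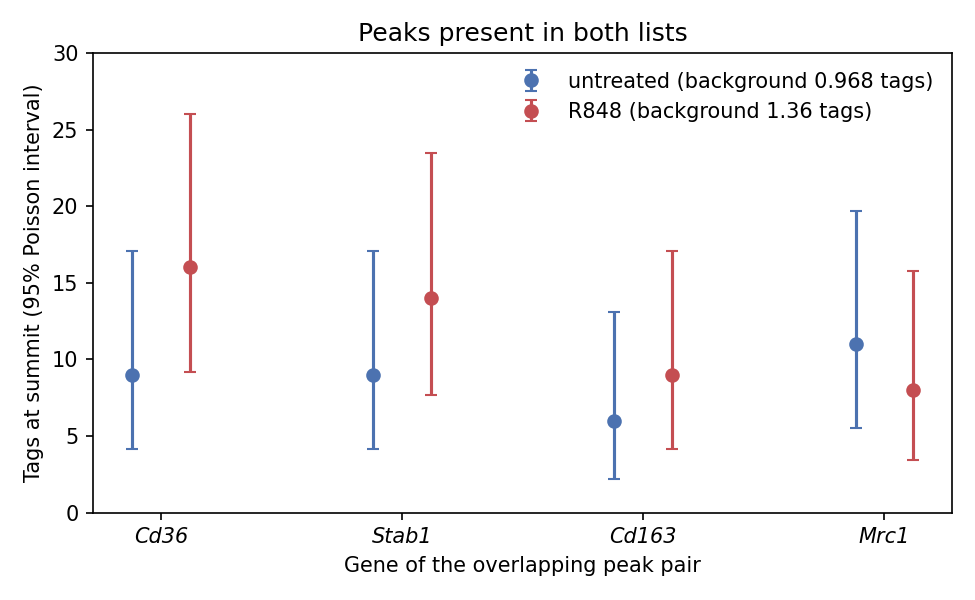
Tags at the summit of the 4 overlapping peak pairs, untreated in blue and R848 in red, with exact 95% Poisson intervals for counting error. R848 tags are higher at Cd36, Stab1 and Cd163 and lower at Mrc1, where the summits lie 322 bp apart, and the intervals of each pair overlap.

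The wider family and the genes that handle lipid after uptake were counted in the same way. Of 19 other scavenger and lipoprotein receptor genes, 11 had an R848-only peak and 12 an untreated-only peak, beside 47.2% and 56.9% of all protein-coding genes, with 18 and 33 such peaks in all and a median of 1 of each per gene. Those with the most R848 peaks were Lrp1, a large endocytic receptor, Megf10, an engulfment receptor, and Scarb2, a lysosomal membrane receptor. They had 5, 4 and 3 R848 peaks, of which 4, 3 and 1 were R848-only, and 3, 5 and 5 untreated peaks. Of 15 lipid handling genes, 7 had an R848-only peak and 10 an untreated-only peak, beside the same 47.2% and 56.9%. Here Abca1, the cholesterol exporter, had 9 R848 and 4 untreated peaks. Nceh1, a cholesteryl ester hydrolase, had 5 and 4, and Fabp5, a fatty acid binding protein, had 4 and 7. An untreated summit within 1 kb of a gene end was found at 4 of 19 other receptor genes and 9 of 15 lipid handling genes, against 0 of the 8 receptor genes described here and 30.7% of all protein-coding genes. An R848 summit was found there at 5, 10 and 2 genes of these lists, against 38.7% of all.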

How the data were processed

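The files were 2 peak lists, 1 per library, made by the authors with bcl2fastq 2.19, Bowtie2 2.2.6 and MACS2 2.2.7.1 on mm10, per the submitters' processing notes; settings, read filters and read totals are not given in the sources used here. Libraries had been amplified for 15 PCR cycles, per the labels' protocols. Each deposited fold is a ratio of tags to background at the summit of a peak, the deposited −log10 p and −log10 q belong to that summit, and the deposited score was not used. Tags and background were solved from fold, (tags + 1)/(background + 1), and p, a Poisson tail, to within 0.1% for 99.9% of peaks in each list; the solver was tested on simulated data. The narrowest peaks were 200 bp wide, and the fewest tags recovered at any peak were 4 (untreated) or 5 (R848). A site missing from a list may thus still hold tags. If tags were extended by unequal lengths, the background ratio is not one of depth.

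Summits were assigned to the nearest end of 21887 protein-coding genes of the RefSeq table (GRCm38.p6), which has no exons, so peaks could not be placed in exons, introns or UTRs. Strand came from the promoter table, which matched 6 of 8 genes. Overlaps used bedtools 2.31.1 and Python 3.11.15 (numpy 2.4.6, pandas 2.3.3, scipy 1.17.1, matplotlib 3.10.9). Named were the 8 genes with their strongest, nearest and overlapping peaks and those of at least 10 tags, and the 3 genes with the most R848 peaks of other lists. One gene of the list of other receptors is not reported here. The members and lists were chosen with earlier results of these data known. With 1 library per group no test was run. The alternatives were 8 changes of threshold, list length, overlap and assignment, and, added after seeing the data, the counts without Msr1.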

Additional observations from a re-analysis of the deposited data

How the results depend on the processing

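The 20 R848-only and 37 untreated-only peaks, and the shares of 16.7% and 9.76% in both lists, were recomputed under 8 alternatives, and without Msr1 as a choice made after seeing the data. At a −log10 q of at least 5 there were 4 R848-only and 1 untreated-only peaks and the shares were 0% and 0%, since 5 peaks were left and the untreated partners at Cd36 and Stab1 dropped out. At a q of at most 0.05 there were 8 R848-only and 26 untreated-only peaks. With lists of equal length there were 17 untreated-only peaks, so their excess over R848-only peaks (21) turned. With gene ends within 20 kb there were 11 and 14. Without Msr1 there were 10 R848-only and 27 untreated-only peaks. The 4 values moved by less than these limits (1.5 times for counts, the Wilson interval for shares) with an overlap of at least 50%, a gap of up to 500 bp, the gene that holds the summit, and every gene within 50 kb. The last of these still raised the peaks in both lists from 4 to 8, of 34 R848 and 47 untreated peaks. It also moved 9 of the 24 values counted per gene, so the counts of single genes depended on the assignment. No paired analysis was possible because each group had 1 library. Most peaks held under 10 tags, so single peaks carry little weight.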
